A study of Mus musculus with 23 samples.

Results

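The Hox genes were taken as every row of the comparison of Inv1DelCTCF with Inv1 whose symbol is Hoxa, Hoxb, Hoxc or Hoxd followed only by a number from 1 to 13, which gave 39 of the 34682 genes listed. There were 11 genes of the HoxA cluster, 10 of HoxB, 9 of HoxC and 9 of HoxD. Membership rests on names and uses no measured value, though the set was chosen with earlier results of these data known. The RNA came from E11.5 mouse embryos, from the distal part of the forelimb, in a study of engineered inversions that move an enhancer cluster of the limb gene Epha4 into a gene-dense part of chromosome 1. The group Inv1, with 3 libraries, carries the first inversion. The group Inv1DelCTCF, with 2 libraries, carries by its name the same inversion and a deletion of a CTCF binding site, so both groups are mutant and the comparison holds no wild type. The labels give G4 ESC, a mouse embryonic stem cell line, as the cell type of both groups and name no zygosity, clone or pooling of embryos. The 4 tables against wild type list 0 Hox genes, so the level of a Hox gene in wild type limbs is not analysed here.

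Hox genes encode homeodomain transcription factors that give cells positional identity along the body axis and along the limb. They lie in 4 clusters, and genes of the same paralogue number in different clusters descend from a common ancestor. In the limb, genes of low number act near the shoulder or not at all, while Hoxa and Hoxd genes of high number pattern the forearm and then the hand plate, and Hoxa13 and Hoxd13 together are required for digits. Enhancers in the gene deserts that flank the HoxD cluster drive its genes in the forearm and, later, in the hand plate.

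The promoters of 4 members are shown because 3 of them (Hoxa13, Hoxa9 and Hoxd12) were called in the comparison below and the fourth, Hoxd13, had the highest level, a choice made after its level was seen. Each window runs 5′ to 3′ on the gene's strand from 250 bases before the RefSeq transcript start to 50 bases after it, in GRCm38.p6. Capitals mark matches, on either strand, of the TATA box letters TATAAA. They also mark the CCAAT box and the word TTTAT, a core that HOX proteins of high number prefer. A match of TTTAT can overlap one of TATAAA.
Hoxa13, chr6:52260831-52261130, minus strand: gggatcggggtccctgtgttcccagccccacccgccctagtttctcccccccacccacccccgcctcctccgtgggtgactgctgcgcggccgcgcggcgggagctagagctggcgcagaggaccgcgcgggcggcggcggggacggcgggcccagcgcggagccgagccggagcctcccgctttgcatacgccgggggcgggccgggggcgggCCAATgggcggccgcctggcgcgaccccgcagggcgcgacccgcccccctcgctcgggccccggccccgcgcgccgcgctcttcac
Hoxd13, chr2:74667975-74668274, plus strand: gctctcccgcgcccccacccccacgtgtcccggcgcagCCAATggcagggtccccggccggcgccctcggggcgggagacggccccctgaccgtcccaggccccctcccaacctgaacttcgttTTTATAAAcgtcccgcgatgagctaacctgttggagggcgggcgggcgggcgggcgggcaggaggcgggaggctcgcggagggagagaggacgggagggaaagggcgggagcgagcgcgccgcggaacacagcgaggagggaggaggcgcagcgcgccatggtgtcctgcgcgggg
Hoxd12, chr2:74674763-74675062, plus strand: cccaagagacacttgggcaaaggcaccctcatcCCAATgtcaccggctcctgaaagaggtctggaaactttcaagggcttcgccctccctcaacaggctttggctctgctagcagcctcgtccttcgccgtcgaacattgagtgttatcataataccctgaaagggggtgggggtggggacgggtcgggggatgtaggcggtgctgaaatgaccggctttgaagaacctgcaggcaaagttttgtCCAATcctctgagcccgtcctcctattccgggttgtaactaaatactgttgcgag
Hoxa9, chr6:52227321-52227620, minus strand: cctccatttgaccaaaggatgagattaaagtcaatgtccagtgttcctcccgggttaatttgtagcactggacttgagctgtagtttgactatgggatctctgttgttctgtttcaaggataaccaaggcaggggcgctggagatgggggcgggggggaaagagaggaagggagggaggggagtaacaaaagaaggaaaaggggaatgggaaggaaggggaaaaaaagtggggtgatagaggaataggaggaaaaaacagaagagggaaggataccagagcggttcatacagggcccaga

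The 4 windows differ in their content of CG dinucleotides. The Hoxa13 window holds 45 and the Hoxd13 window 37, against 13 in Hoxd12 and 4 in Hoxa9. The median over all 32851 promoter windows of the same length is 7, and over the 24 windows of the 22 Hox genes in the RefSeq table it is 14.5. CCAAT lies in the windows of Hoxa13, Hoxd13 and Hoxd12, in 62.5% of all Hox windows and in 37.4% of all promoter windows. TATAAA lies in the Hoxd13 window alone of the 4, where it overlaps TTTAT, and in 16.7% of Hox windows against 13.6% of all. TTTAT was found in 37.5% of Hox windows and in 40.0% of all. These matches describe letters only.

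The values come from the authors' comparison of Inv1DelCTCF with Inv1, which gives for each gene a mean normalised count over the 5 libraries, a fold change on the log2 scale, the standard error (SE) of that change, and p-values, but no value per library. Depth per library is therefore unknown, and replicate spread enters only through the SE. The mean levels of each group printed here were rebuilt from the mean and the fold change. The file headers do not name the numerator, and the direction was inferred: a positive deposited log2 fold change was read as higher in Inv1. Every log2 change is printed here with its sign turned, so that a positive one means higher in Inv1DelCTCF and every sign is the opposite of the deposited one. That reading left a median residual of 0.0124 on the log2 scale over 49 genes shared with the wild type tables, against 0.107 or more under any other convention. Here a gene is called where its adjusted p, as deposited, is under 0.05. This held for 11.7% of the 11218 genes that have one, with 3.81% higher and 7.89% lower in Inv1DelCTCF. Nothing in the labels says that libraries came from separate litters, so these p-values measure the spread between the libraries.

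HoxD and HoxA genes of high paralogue number made up most of the Hox RNA. Per kb of the longest annotated transcript, HoxD genes held 66.6% of the summed Hox level and HoxA genes 31.4%, against 1.47% for HoxC and 0.574% for HoxB. With the median transcript length of each gene in place of the longest, HoxD held 51.1% and HoxA 46.9%. The 16 genes of paralogue numbers 9 to 13 held 93.3% of that sum, the 11 genes of numbers 5 to 8 held 4.78%, and the 12 genes of numbers 1 to 4 held 1.90%. All 9 members with a mean count of at least 1000 were HoxA or HoxD genes of number 9 or above.

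**Figure D1:**
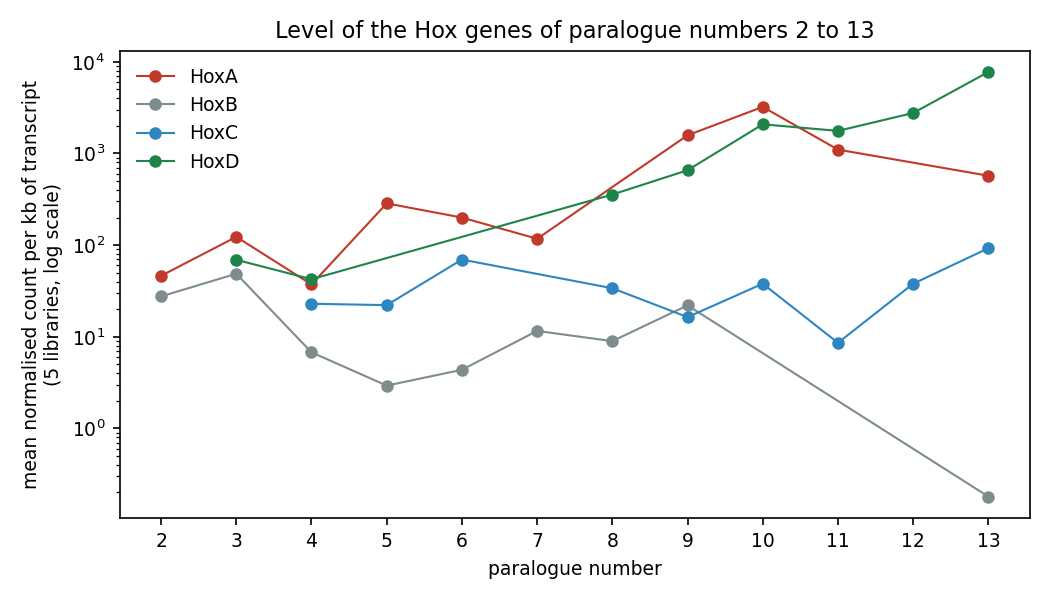
Level of the 36 Hox genes of paralogue numbers 2 to 13, as mean normalised count per kb of transcript over the 5 libraries (vertical axis, log scale), against paralogue number (horizontal axis), with 1 colour and line per cluster. HoxA reaches its highest level at Hoxa10 with 3224 and HoxD at Hoxd13 with 7749.6, while no HoxB or HoxC gene passes 92.5.

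Hoxd13, which is needed for digit formation, was the most abundant member, with 7749.6 normalised counts per kb and a rank of 134 among 25446 genes with a known length. Its mean count of 19242 lay between rebuilt means of 18981 in Inv1 and 19634 in Inv1DelCTCF. Hoxa10 followed with 3224 counts per kb, then Hoxd12 with 2766, Hoxd10 with 2081, Hoxd11 with 1764, Hoxa9 with 1579 and Hoxa11 with 1103. Hoxd9 with 656 and Hoxa13 with 571 closed the set of strongly expressed members, so that Hoxd13 stood 13.6-fold above Hoxa13 per kb.

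This order below Hoxd13 depends on the transcript length used. With the median length of a gene's transcripts in place of the longest, Hoxa9 came second at 5987 counts per kb, Hoxa10 followed at 5257, and Hoxa13 stood at 1779.7. Hoxd13 stayed first at 7749.6 with either length. Without values per library, neighbours in the order could not be tested against each other. Exons of 16 of the 39 genes overlap another annotated gene in GRCm38, among them Hoxa11 with the antisense RNA Hoxa11os, Hoxd3 with Hoxd4, and Hoxd10 and Hoxd11 with a joint transcript. No strand rule for counting is given in the sources used here, so the split of reads in those genes is uncertain.

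Members outside this set had far lower levels. Hoxd8, at the boundary of the HoxD group, had 357 counts per kb, and Hoxa5, Hoxa6, Hoxa3 and Hoxa7 had 285, 199.9, 123 and 117. Hoxd1 was the lowest of HoxD at 0.539. In HoxB the highest was Hoxb3 at 48.7 and the lowest Hoxb13 at 0.180, a gene of the tail end of the trunk with a mean count of 0.398. In HoxC the highest was Hoxc13 at 92.5 and the lowest Hoxc11 at 8.59.

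Genes that separate forelimb from hindlimb were checked against the tissue label. Tbx5, the forelimb T-box gene, had 1845 counts per kb, against 204 for its hindlimb relative Tbx4 and 7.82 for the hindlimb homeobox gene Pitx1. Their log2 changes per the authors' deposited table with signs turned were 0.06 (SE 0.0781, adjusted p = 0.675) for Tbx5 and -0.15 (SE 0.106, adjusted p = 0.377) for Tbx4. Pitx1, with a mean count of only 19.2, had one of -1.42 (SE 0.787) and no adjusted p per the authors' deposited table with signs turned. Isl1, the remaining gene of the hindlimb list, had 16.3 counts per kb and a mean count of 41.0. It went the other way, at 0.69 (SE 0.389) with no adjusted p, per the authors' deposited table with signs turned. HoxC genes of numbers 10 to 12, which are known from the hindlimb, had between 8.59 and 37.9 counts per kb.

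Of the 39 Hox genes, 17 had a mean count high enough for an adjusted p per the authors' deposited table, where the lowest mean with one was 113. Among these 17, Hoxa13 and Hoxd12 fell in Inv1DelCTCF, Hoxa9 rose, and 14 were not called. The share of 3 in 17 stands beside 11.7% of all tested genes and, among the 9 members with a mean of at least 1000, 3 stands beside 16.0% of all genes that abundant. The median log2 change of the 17 was -0.09 against -0.01 over all tested genes, and over all 39 it was -0.04. After subtraction of a trend in GC content and transcript length, the median of the 39 had the other sign, at 0.05. The 3 called members differed by 0.21 to 0.30 on the log2 scale, and no member passed with a log2 difference of 0.5 or more.

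Hoxd12, a HoxD gene of the hand plate, had rebuilt mean counts of 7483 in Inv1 and 6299.8 in Inv1DelCTCF. Per the authors' deposited table with signs turned it stood at -0.25 on the log2 scale (SE 0.0738, adjusted p = 0.0133), or 0.842 times its Inv1 level with 95% limits of 0.762 to 0.931. Hoxa13, the HoxA gene required for the autopod, went from 1480.0 to 1202 by the same rebuilding. Per the authors' deposited table with signs turned it changed by -0.30 (SE 0.102, adjusted p = 0.0330), or to 0.812 of the Inv1 level (0.707 to 0.932). Hoxa9, which acts with its paralogues in patterning the forelimb bud, went the other way, from 4787 to 5556. Its change was 0.21 (SE 0.0729, adjusted p = 0.0335) per the authors' deposited table with signs turned, a level 1.16-fold that of Inv1 (1.05 to 1.28).

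Under other call rules the share of all genes called was 5.13% at an adjusted p under 0.01, 17.4% under 0.1, 1.55% with a log2 size of at least 0.5 as well, and 26.1% at an unadjusted p under 0.05. It was 4.20% with p adjusted over all genes, 7.77% and 10.1% with a mean count of at least 10 and 50, and 11.1% after centring on the median.

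The calls for Hoxa13 and Hoxd12 did not hold when a trend across all genes was removed. Tested genes with a higher transcript GC content had lower log2 changes, with a Spearman correlation of -0.518 across 10940 genes, which share the same 5 libraries. With that trend subtracted, 3.66% of genes were called, 2.01% higher and 1.65% lower. Hoxa13 then stood at -0.23 (adjusted p = 0.208) and Hoxd12 at -0.16 (adjusted p = 0.222), while Hoxa9 stayed called at 0.23 (adjusted p = 0.0418). Hoxd11, whose transcript has a GC content of 42.4%, moved from -0.27 (SE 0.0986, adjusted p = 0.0522) per the authors' deposited table with signs turned to -0.35 (adjusted p = 0.0167) and was called lower.

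**Figure D2:**
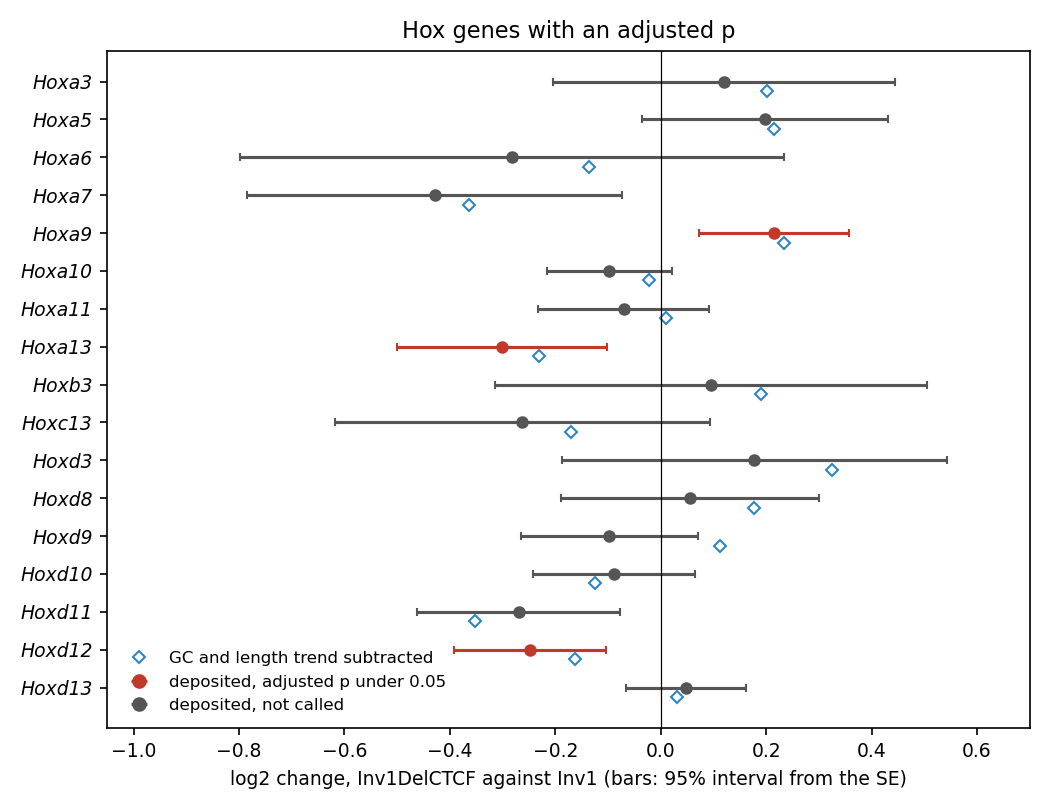
Log2 change of the 17 Hox genes with an adjusted p, Inv1DelCTCF against Inv1 (horizontal axis; bars are 95% intervals from the SE), by gene. Red points are the 3 called genes, grey points the 14 not called, and open diamonds the change after subtraction of the GC and length trend, where Hoxd11 moves to -0.35 and Hoxa13 and Hoxd12 move toward 0.

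The other abundant posterior genes had narrow intervals around small values. Hoxd13 had a log2 difference of 0.05 (SE 0.0581, adjusted p = 0.628) per the authors' deposited table with signs turned, and 95% limits of -0.07 to 0.16. Hoxa10, with rebuilt means of 8490.2 and 7937, had one of -0.10 (SE 0.0604, adjusted p = 0.300) and an interval of -0.22 to 0.02 per the authors' deposited table with signs turned. For these members a difference of 0.5 on the log2 scale lies outside the interval.

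Hoxd11, which with Hoxa11 patterns the forearm bones and is also active in the hand plate, missed the threshold with rebuilt means of 6375 and 5288. Hoxa11 itself had a log2 difference of -0.07 (SE 0.0827, adjusted p = 0.623) per the authors' deposited table with signs turned. Hoxd10 stood at -0.09 (SE 0.0784, adjusted p = 0.489) and Hoxd9 at -0.10 (SE 0.0852, adjusted p = 0.487) per the authors' deposited table with signs turned. Of the 9 members with a mean of at least 1000, 7 had a negative sign and 2 a positive one, where 3704 of 6434 genes that abundant were negative. After subtraction of the trend 5 of the 9 were negative, as Hoxa11 and Hoxd9 turned positive. Summed over all 39 members, the rebuilt level was 59252 in Inv1 and 57108 in Inv1DelCTCF.

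**Figure D3:**
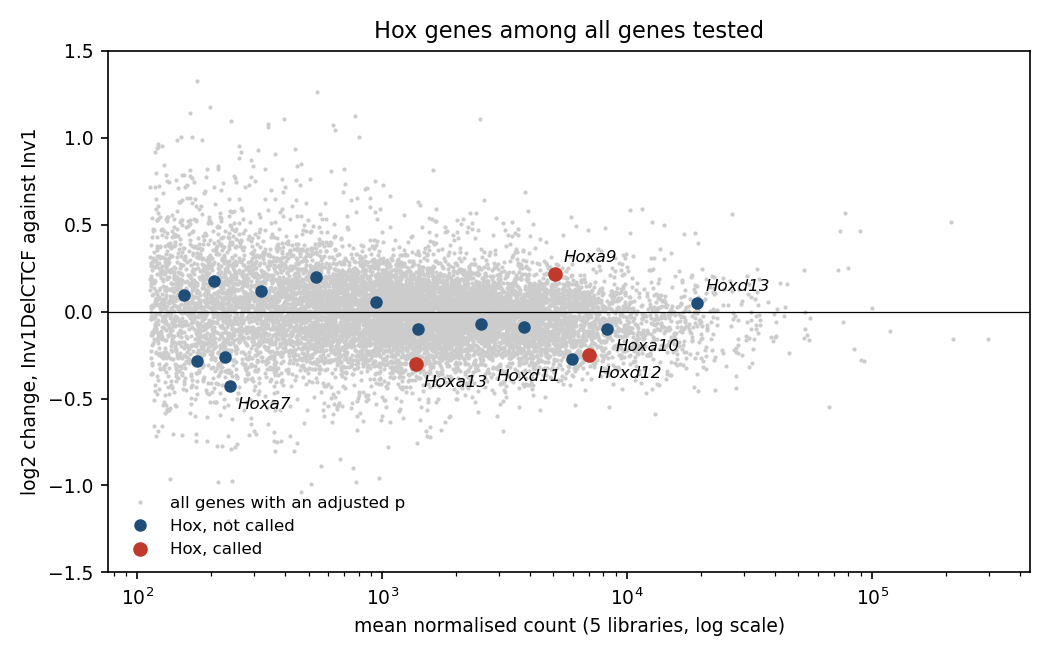
Log2 change (vertical axis) against mean normalised count over 5 libraries (horizontal axis, log scale) for the 11218 genes with an adjusted p in grey, with the 14 Hox genes not called in blue and the 3 called in red; 1 gene lies outside the plotted range of 1.5 in either direction. The Hox genes lie within the cloud of all genes, and the called members have mean counts between 1369 and 7010.

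Within HoxA, genes below number 9 gave wider intervals. Hoxa7, a gene of the trunk, had the largest change among members with an adjusted p, at -0.43 (SE 0.181, adjusted p = 0.102) per the authors' deposited table with signs turned, and did not pass. Hoxa5, which patterns the neck and shoulder, stood at 0.20 (SE 0.119, adjusted p = 0.279), Hoxa3 at 0.12 (SE 0.165) and Hoxa6 at -0.28 (SE 0.263) per the authors' deposited table with signs turned. Hoxa2 and Hoxa4, with means of 82.1 and 59.4, had no adjusted p, and their log2 changes were 0.37 (SE 0.276) and 0.07 (SE 0.386) per the authors' deposited table with signs turned.

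Within HoxD, Hoxd8 stood at 0.05 (SE 0.125, adjusted p = 0.824) and Hoxd3 at 0.18 (SE 0.186, adjusted p = 0.574) per the authors' deposited table with signs turned. Hoxd4, with a mean of 109 just under the lowest tested, had a difference of -0.0030 (SE 0.242), per the authors' deposited table with signs turned. Hoxd1, with a mean under 10, gave no usable change, since its SE was 2.53.

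HoxB genes were scarce, and 9 of the 10 had no adjusted p. Hoxb3 was the exception, at 0.10 (SE 0.209, adjusted p = 0.817) per the authors' deposited table with signs turned. Hoxb2, with a mean of 86.4, had a difference of 0.08 (SE 0.310), and Hoxb9, with a mean of 56.7, one of 0.32 (SE 0.334) per the authors' deposited table with signs turned. Hoxb1, Hoxb5, Hoxb6 and Hoxb13 had means under 10, and their changes had SE values of 0.875 or more.

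HoxC genes were also scarce, and Hoxc13, which acts in hair and nails in the adult, was the 1 member with an adjusted p. It stood at -0.26 (SE 0.181, adjusted p = 0.363), with rebuilt means of 244 and 203, per the authors' deposited table with signs turned. Over all genes 10971 had a negative sign and 10970 a positive one. Of the 9 HoxC genes, 7 had a negative sign, including all 5 of numbers 9 to 13. After subtraction of the trend 6 were negative, as Hoxc9 turned positive. The largest were Hoxc12 at -0.73 (SE 0.409), Hoxc8 at -0.64 (SE 0.357) and Hoxc10 at -0.55 (SE 0.327) per the authors' deposited table with signs turned, each with an unadjusted p above 0.05. The summed rebuilt level of HoxC was 738 in Inv1 and 628 in Inv1DelCTCF.

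The members were also read by paralogue number. For number 13, the log2 change per the authors' deposited table with signs turned was -0.30 for Hoxa13, -0.26 for Hoxc13 and 0.05 for Hoxd13, while Hoxb13 was too low to read. Number 12 was negative in both of its members, -0.73 in Hoxc12 and -0.25 in Hoxd12, and number 11 in all 3, between -0.07 in Hoxa11 and -0.27 in Hoxd11, per the authors' deposited table with signs turned. For number 10 the values were -0.10 for Hoxa10, -0.55 for Hoxc10 and -0.09 for Hoxd10 per the authors' deposited table with signs turned.

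Number 9 was mixed, with 0.21 for Hoxa9 and 0.32 for Hoxb9 against -0.10 for both Hoxc9 and Hoxd9 per the authors' deposited table with signs turned. By sign alone, 12 of 16 genes of numbers 9 to 13 were negative, 6 of 11 of numbers 5 to 8, and 3 of 12 of numbers 1 to 4. Over all genes 10971 were negative and 10970 positive. The medians of the number classes, in that order, were -0.10, -0.04 and 0.09. After subtraction of the trend the negative counts were 9, 5 and 2, where 5255 of 10940 tested genes were negative. Most of those signs belong to genes that passed no test, and differences between the number classes were not tested.

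Evx1 and Evx2, which flank the high-number ends of HoxA and HoxD, fell. The homeobox gene Evx1, next to Hoxa13, had rebuilt means of 445 and 265 and a log2 difference of -0.75 (SE 0.222, adjusted p = 0.0129) per the authors' deposited table with signs turned. Evx2, its relative next to Hoxd13, had means of 254 and 149 and a difference of -0.77 (SE 0.261, adjusted p = 0.0323), per the authors' deposited table with signs turned. After subtraction of the GC and length trend neither stayed called, at -0.53 (adjusted p = 0.172) and -0.71 (adjusted p = 0.102). Of the 18 genes beside the clusters in the list, 17 were found and 12 had an adjusted p. Of these 12, 3 fell and 0 rose, where 7.89% of all tested genes were lower. The other called gene was Cbx5, a heterochromatin protein gene beside HoxC, at -0.29 (SE 0.0594, adjusted p = 9.12e-05) per the authors' deposited table with signs turned. Cbx5 stayed called after subtraction of the trend, at -0.33 (adjusted p = 9.80e-06). Lnp and Mtx2, on either side of HoxD, stood at 0.07 (SE 0.0891) and -0.02 (SE 0.0866) per the authors' deposited table with signs turned.

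Among noncoding RNAs of the clusters, Hoxa11os and 5730457N03Rik fell. Hoxa11os, transcribed antisense to Hoxa11, had rebuilt means of 1355 and 920.0 and a difference of -0.56 (SE 0.112, adjusted p = 7.80e-05) per the authors' deposited table with signs turned. A row named Hoxa11as, an older name of the same RNA in RefSeq, stood at -0.31 (SE 0.193, adjusted p = 0.305), so reads of that RNA may be split between rows. The row 5730457N03Rik, named Evx1os in RefSeq and lying between Hoxa13 and Evx1, changed by -0.56 (SE 0.157, adjusted p = 0.00767) per the authors' deposited table with signs turned. Both kept their call after subtraction of the trend, at -0.44 (adjusted p = 0.00737) and -0.50 (adjusted p = 0.0413). Of 25 noncoding genes in the list, 22 rows were found and 4 had an adjusted p. Of these 4, 2 fell and 0 rose, where 7.89% of all tested genes were lower. The other row tested, Mira, stood at -0.12 (adjusted p = 0.662). The hairpins Mir10a and Mir10b were listed at 0, in libraries made from polyA RNA.

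**Figure D4:**
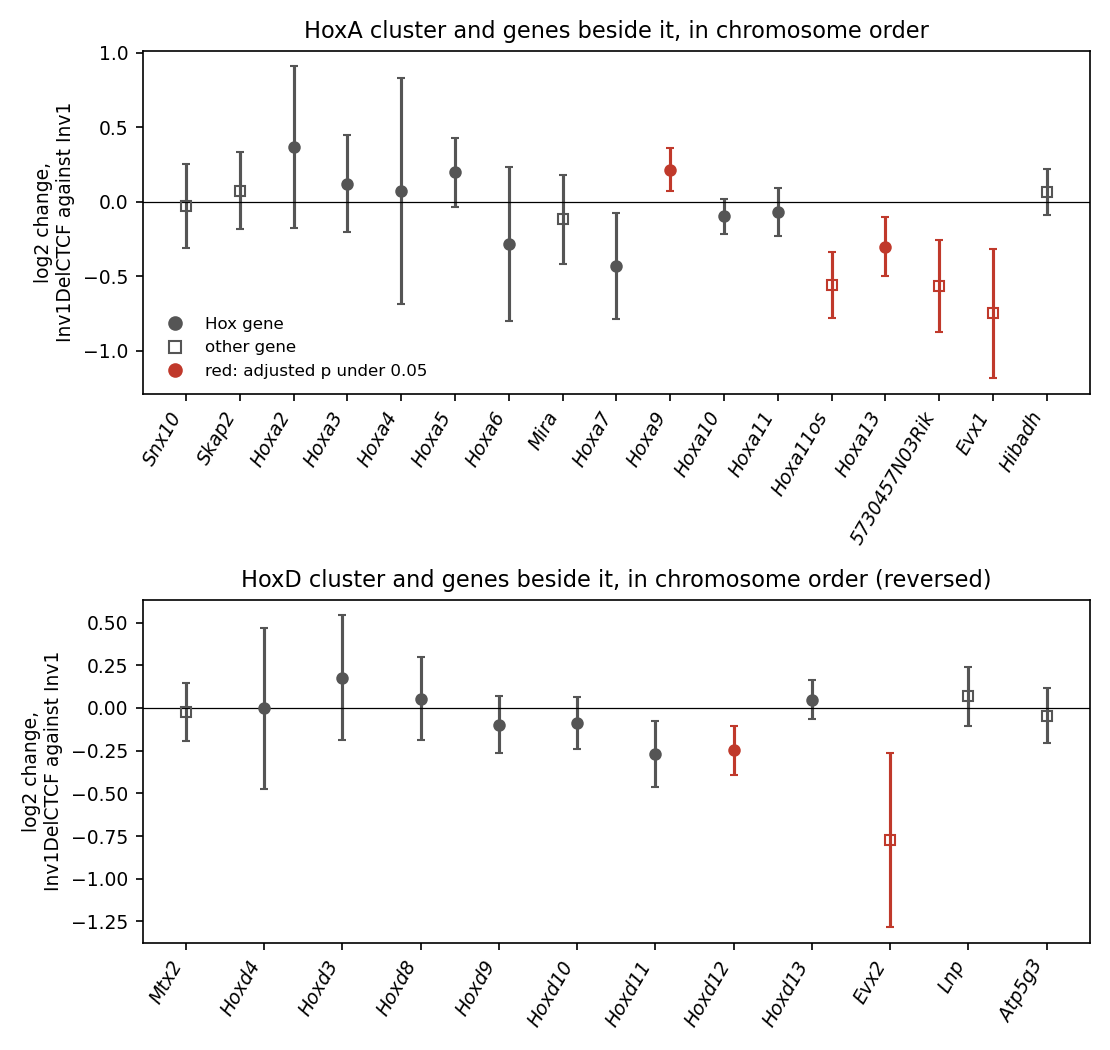
Log2 change, Inv1DelCTCF against Inv1 (vertical axis, bars are 95% intervals from the SE), of genes with a mean count of at least 50 in and beside HoxA (top) and HoxD (bottom), in chromosome order by annotated gene start, with paralogue number rising from left to right except for Hoxd3 and Hoxd4, whose annotations overlap. Filled circles are Hox genes, open squares other genes, and red marks an adjusted p under 0.05; Hoxa11os, Hoxa13, 5730457N03Rik and Evx1 lie side by side below 0, between Hoxa11 and Hibadh, which were not called.

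Partners of HOX proteins showed no call. PBX, MEIS and PKNOX proteins bind DNA together with HOX proteins, and of their 9 genes 6 had an adjusted p. By the authors' Wald test 0 were called and 0 had an unadjusted p under 0.05. Over all tested genes those shares were 11.7% and 26.1%. Pbx2 stood at -0.10 (SE 0.0603) per the authors' deposited table with signs turned. Meis1 and Meis2, which mark the proximal limb, had 52.0 and 30.9 counts per kb, far under Hoxd13, and changes of -0.06 (SE 0.137) and 0.04 (SE 0.219) per the authors' deposited table with signs turned.

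Over all tested genes 7.89% were lower in Inv1DelCTCF. Among Polycomb and Trithorax genes, whose products keep Hox genes off or on, 3 of 19 with an adjusted p fell and 0 rose. These were Phc1 at -0.19 (SE 0.0622, adjusted p = 0.0231), Cbx2 at -0.23 (SE 0.0754, adjusted p = 0.0299) and Kdm6b at -0.32 (SE 0.108, adjusted p = 0.0310) per the authors' deposited table with signs turned. After subtraction of the trend the 3 were not called, at -0.11 for Phc1 (adjusted p = 0.366), -0.07 for Cbx2 (0.704) and -0.12 for Kdm6b (0.637).

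Several signals and regulators that act with Hox genes in the limb fell. Of 23 with an adjusted p, 6 fell and 0 rose, with a median log2 difference of -0.20. Over all tested genes 7.89% were lower and the median was -0.01. Among genes with a mean count of at least 1000, 739 of 6434 were lower. Sall4, a zinc finger gene of the early limb, changed by -0.85 (SE 0.182, adjusted p = 0.000299), Cyp26b1, which degrades retinoic acid, by -0.42 (SE 0.107, adjusted p = 0.00287), Tbx2 by -0.33 (SE 0.0890, adjusted p = 0.00475) and Ptch1, the hedgehog receptor gene, by -0.33 (SE 0.0954, adjusted p = 0.0111) per the authors' deposited table with signs turned. After subtraction of the trend Sall4 stayed called, at -0.75 (adjusted p = 0.00408). The other 3 did not, with Ptch1 at -0.29 (adjusted p = 0.0625), Cyp26b1 at -0.28 (adjusted p = 0.136) and Tbx2 at -0.09 (adjusted p = 0.689). Bmp4 and Bmp7, the remaining called genes of the list, also lost their calls. They then stood at -0.38 (adjusted p = 0.0780) and -0.15 (adjusted p = 0.421). Larger changes with wide errors were not called. Per the authors' deposited table with signs turned, Fgf8 stood at -1.20 (SE 0.609, adjusted p = 0.188) and Grem1 at -0.90 (SE 0.400, adjusted p = 0.125). Shh, with a mean count of 95.4, stood at -1.99 (SE 0.738) with no adjusted p. Of all 25 genes in the list, 20 were negative and 5 positive, beside 10971 and 10970 over all genes.

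Markers of other cells of the limb moved in the same comparison, and their part in the Hox values was not tested. For all counts of markers, the share over all tested genes was 7.89% lower and 3.81% higher. Of 8 surface ectoderm markers 4 fell and 0 rose, and their summed rebuilt level was 11863 in Inv1 and 9861 in Inv1DelCTCF. They were Krt5, Cdh1, Krt18 and Krt8, with changes of -0.30, -0.39, -0.56 and -0.74 per the authors' deposited table with signs turned. Of 9 limb mesenchyme markers Lhx2 and Lmx1b fell, by 0.41 and 0.44 on the log2 scale, and the sums were 57434 and 55995. After subtraction of the trend these 6 genes were not called, though their changes kept their sign. Krt5 then stood at -0.16 (adjusted p = 0.238), Cdh1 at -0.35 (0.0528), Krt18 at -0.43 (0.124) and Krt8 at -0.60 (0.141), and Lhx2 stood at -0.24 (0.241) and Lmx1b at -0.27 (0.208). In bulk tissue, fewer cells of a type and less RNA per cell cannot be told apart.

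Of 6 endothelial markers Cdh5 fell, by 0.24, with sums of 7460 and 6771, and it was not called after subtraction of the trend, at -0.17 (adjusted p = 0.229). Of 5 erythroid markers with an adjusted p, Hba-x and Hbb-bh1, the embryonic globins, fell by 0.44 and 0.28, with sums over the list of 87007 and 81825 and with Hba-a1 and Hba-a2 listed at 0. Both globins stayed called after subtraction of the trend, Hba-x at -0.33 and Hbb-bh1 at -0.32 (adjusted p = 0.0418 for Hba-x and 0.0312 for Hbb-bh1). The sums were 3507 and 4133 for muscle precursor markers, 815 and 1008 for macrophage markers and 1553 and 1823 for nerve markers. In these lists 5, 3 and 3 markers had an adjusted p, and 0 were called by the authors' Wald test. In that test 0, 1 and 1 of those markers had an unadjusted p under 0.05, where 26.1% of all tested genes did. By sign, 4, 5 and 5 markers of the lists were positive and 3, 0 and 1 negative. Over all genes 10970 were positive and 10971 negative. With the trend subtracted, the macrophage marker Csf1r was called higher, at 0.53 (adjusted p = 0.0392). Adgre1, under its present and its older name Emr1, and Neurog2 were listed at 0. How reads shared between rows were counted is not known. A 0 for Adgre1, Hba-a1 or Hba-a2 therefore need not mean absent RNA. The macrophage marker Csf1r had a mean count of 371.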

How the data were processed

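The members and lists were chosen with earlier results of these data known. Distal forelimb libraries of Inv1 (3) and Inv1DelCTCF (2) enter the comparison. Tools named without versions in the submitters' processing notes are DESeq2 and STAR, and mm9 is the build. Per the file headers, the authors deposited for each gene a mean normalised count (a signal pooled over libraries), a log2 fold change, its SE and Wald score, and the p-value and adjusted p-value. No count per library was used here. Signs of the deposited log2 values were turned, as a positive one was inferred to mean higher in Inv1. Deposited calls were used as they stand, and an adjusted p the authors left empty stays empty.

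Group means were rebuilt from the mean, the fold change and the numbers of libraries, and 95% intervals from the SE. Length and GC content came from the longest GENCODE M21 transcript (GRCm38, not the authors' build), found for 97.5% of tested and 97.3% of called genes and for all 39 Hox genes. For the trend, a cubic in GC content, a cubic in log2 length and the product of both were fitted by weighted least squares, and p-values of the remainder were adjusted after Benjamini and Hochberg. In 20 simulated tables of this comparison with 11218 genes, of which 200 changed, subtraction recovered 97.8% of changes of 1 on the log2 scale, with a mean of 11.8 false calls. Of changes of 0.25, near the size of the Hox calls, it recovered 21.6%, beside 21.4% in the same tables with no GC trend planted. With a planted trend left in, 41.4% were called, counting calls in either direction, and so were a mean of 879 other genes. The planted trend was a straight line in GC content, and changed genes were drawn at random whatever their GC content. These tables therefore cannot show what subtraction does to changes that go with GC content.

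Hox genes that were called, and Hoxa9 to Hoxa13 and Hoxd9 to Hoxd13, were named with full statistics. In other lists up to 4 called genes with the smallest adjusted p were named, and Tbx5, Tbx4 and Pitx1. Isl1, Bmp4, Bmp7, Shh, Fgf8, Grem1 and Csf1r were added later. Members with low values are given by range. Some results are not reported here. Promoters are RefSeq's (GRCm38.p6). Planned printing of homeodomains was dropped because no protein table was at hand. Alternatives were other thresholds, filters, centring and trend subtraction. The background among genes with a mean of at least 1000 was added after seeing the data. Software was matplotlib 3.10.9, SciPy 1.17.1, pandas 2.3.3, numpy 2.4.6 and Python 3.11.15.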

Additional observations from a re-analysis of the deposited data

How the results depend on the processing

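Hoxa9, Hoxa13 and Hoxd12, called in the deposited table (1 higher, 2 lower), were called again with a minimum mean count of 10 or 50 and with log2 changes centred on the median, a shift of -0.01. With an adjusted p under 0.1 Hoxd11 joined them. At 0.01, or with a log2 change of at least 0.5, 0 Hox genes were called in either direction. Over all tested genes the shares under those rules were 5.13% and 1.55%. The authors' Wald test gave 5 of the 17 tested Hox genes an unadjusted p under 0.05, where 26.1% of all tested genes had one. Adjusted over all 21940 genes with a p, 1 was called, Hoxd12, which is lower, and 0 were higher; the adjusted p was 0.0640 for Hoxa9 and 0.0631 for Hoxa13. With the GC and length trend subtracted, Hoxa9 was called higher and Hoxd11 lower, so 1 of each, and Hoxa13 and Hoxd12 were not; the cause was not tested. Of the other lists together, 23 genes were called, all lower, where over all tested genes 885 were lower and 427 higher. That count was 11 at 0.01, 7 with a log2 change of at least 0.5, and 7 with the trend subtracted. Of the last, 6 were lower and 1 higher (the macrophage marker Csf1r). At 0.1 the count was 30, of which 3 were higher. The shares of all tested genes were 11.7% as deposited, 5.13% at 0.01 and 17.4% at 0.1. They were 1.55% with a log2 change of at least 0.5 and 3.66% with the trend subtracted. The residual behind the direction was 0.0165 with a mean count of at least 100 and 0.0199 with at least 20, and the same convention had the smallest residual each time. No paired analysis was possible because the table holds no value per library, and for the same reason no fit without each replicate was run. The 22 members with no adjusted p have changes with an SE of at least 0.242.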
